A study of Mus musculus with 2 samples.

Results

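Bowman's gland acinar-type cells made up 98 of 8298 cells that passed the quality filter in a single-cell RNA sequencing study of mouse olfactory epithelium. The name is that of the secreting cells of the glands beneath this epithelium. The 98 cells were picked by their transcripts, and 26 of them did not bear out the acinar label. Values for the whole group include those 26 cells. A cell was kept if it had at least 1000 unique molecular identifiers (UMIs, each standing for 1 captured RNA molecule), at least 500 genes and at most 10% mitochondrial UMIs. A kept cell was acinar-type if Gpx6, Bpifb3 and Bpifb4 together gave at least 5 UMIs and more UMIs than the duct genes Dcpp3, Chil6, Msln and Vmo1 together, and if the neuronal genes Gap43, Gng8 and Omp together gave at most 3 UMIs. The rule therefore used measured values of the same cells, and every level of these genes in these cells is a description.

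The labels describe the open (right) and closed (left) side of the olfactory epithelium of a male C57BL/6 mouse whose left naris was occluded on postnatal day 14 and whose tissue carries the age label PD28. Both sides come from the same treated animal, so there was no untreated mouse, and no transgene or drug is named. Dissociated cells had been frozen, and dead cells were removed before capture with a 3' droplet kit that counts UMIs near the end of each polyadenylated RNA. Each side gave 1 library. The labels do not say which of the 2 libraries in the pooled table is which side, so they are called library 1 and library 2, and no value here is assigned to the open or the closed side. With 1 library per side there was no replicate, and nothing between libraries could be tested. All intervals are exact 95% intervals of counting error only.

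Bowman's glands lie beneath the olfactory epithelium and open onto its surface through ducts that cross it. Their acinar cells make the watery and proteinaceous part of the mucus that bathes the cilia of olfactory neurons, and they carry the transcription factors Sox9 and Sox10, which gland cells in many tissues share. Their known products include lipid-binding proteins of the BPI-fold (BPIF) family, secretoglobins and odorant-metabolising enzymes. Sustentacular cells, the supporting cells of the epithelium, carry many of the same metabolising enzymes but not Sox9.

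Library 1 held 41 acinar-type cells of 3032 kept cells, a share of 1.35% with an interval of 0.972 to 1.83%. Library 2 held 57 of 5266, a share of 1.08% with an interval of 0.821 to 1.40%. The intervals overlap. Acinar-type cells were deeper than the average kept cell, with a median of 9758 UMIs in library 1 and 10164 in library 2 against 5528 and 5140 over all kept cells. Their depth spanned 1304 to 34024 UMIs in library 1 and 1043 to 61176 in library 2. For comparison, 784 cells were duct-type (the same 4 duct genes with at least 5 UMIs and above the acinar genes), and 1472 were sustentacular-type (at least 5 UMIs of Sec14l3, Ermn and Cyp1a2 together, above both gland sums). 12 barcode sequences occurred in both libraries, and 0 acinar-type cells carried one of them.

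The summed Gpx6, Bpifb3 and Bpifb4 count that admitted a cell ranged from 5 to 8825 UMIs, with a median of 186 in library 1 and 92 in library 2. 52 cells had 100 or more UMIs. At the threshold itself, 18 cells had 5 to 9 UMIs and 5 cells had exactly 5, while 20 kept cells just outside had 3 or 4. In all 158 kept cells reached 5 UMIs, of which 45 within the neuronal limit were left out for having at least as many duct UMIs and 15 for exceeding the neuronal limit.

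Gpx6, a glutathione peroxidase of olfactory glands, stood at 6811 CPM (counts per 1000000 summed UMIs of the group; interval 6579 to 7050) in library 1 and at 7236 (7068 to 7406) in library 2. It had no UMI in 15 of 41 and 21 of 57 cells, and the highest cell held 542 and 1940 UMIs. Bpifb3 stood at 36646 CPM (36105 to 37193) in library 1 and at 20204 (19924 to 20487) in library 2, with a median of 128 and 15 UMIs per cell. These genes were therefore very unevenly spread over the cells, and 3 cells held 44.5% of the Bpifb3 UMIs in library 1 and 61.1% in library 2. Bpifb4 stood at 1492 CPM (1385 to 1606) and 4305 (4176 to 4437), with 69.4% and 48.2% of its UMIs in 3 cells. Sox9, which the rule did not use, stood at 375 CPM (322 to 434) in library 1 and 257 (227 to 291) in library 2. At least 1 Sox9 UMI was present in 73.2% and 68.4% of acinar-type cells.

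The gland label was checked by Sox9, which had a UMI in most cells before depth was equalised. After every cell was thinned to 2000 UMIs to equalise depth, Sox9 was detected in 20 of 40 acinar-type cells of library 1 and 19 of 53 of library 2. It was detected in 14.9% and 16.5% of duct-type, 1.05% and 1.78% of sustentacular-type cells and 0.332% and 0.403% of mature neurons. Sox10 was present in 43.9% and 50.9% of acinar-type cells without thinning. After thinning it was detected in 7.5% and 9.43% of acinar-type and 5.92% and 7.91% of duct-type cells, with overlapping intervals. Sox10 at equal total depth therefore did not set acinar-type cells apart from duct-type cells. Thinning did not equalise the depth left for other genes. Scgb1c1 took 20.6% and 11.9% of UMIs in acinar-type and 1.66% and 1.86% in duct-type cells. Gpx6 at the same thinned depth was detected in 55.0% and 52.8% of acinar-type cells and in 0.498% and 0.403% of mature neurons, which should lack it. That background differed between genes: in the same thinned neurons Bpifb3 was detected in 1.16% and 3.36%, Scgb1c1 in 124 of 603 and 223 of 744 neurons and Wfdc18 in 6.47% and 32.9%. In acinar-type cells Scgb1c1 was detected in 92.5% and 94.3% and Wfdc18 in 80.0% and 83.0%. Median depths of those neurons (cells with at least 10 Omp UMIs) were 5521 and 5151 UMIs. Aqp5, a water channel of gland cells, was lower than in both other groups, with 460 and 492 CPM in acinar-type cells against 883 and 809 in duct-type and 632 and 672 in sustentacular-type cells.

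**Figure D1:**
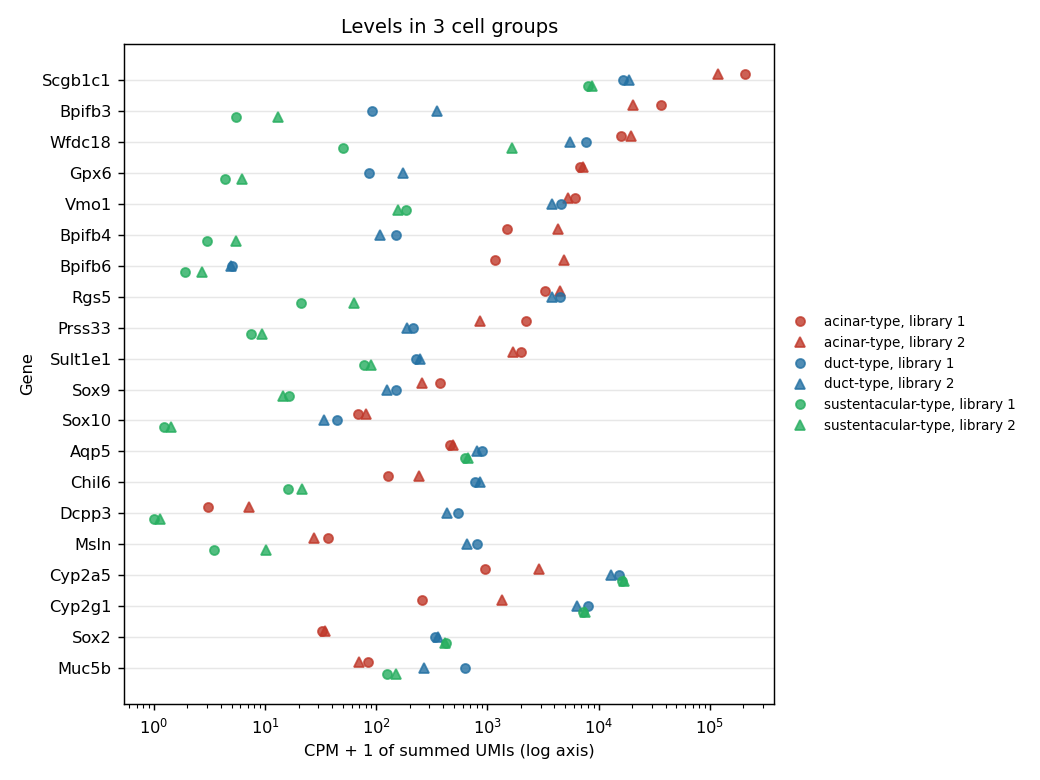
Level of 20 genes as CPM + 1 of summed UMIs on a log axis (x) in acinar-type (red), duct-type (blue) and sustentacular-type (green) cells, with circles for library 1 and triangles for library 2. For Bpifb3, Gpx6 and Bpifb4, by which acinar-type cells were picked, and for Bpifb6, the acinar-type cells of both libraries lie to the right of both other groups. For Cyp2a5, Cyp2g1, Sox2 and the duct genes Dcpp3 and Msln, by which duct-type cells were picked, acinar-type cells lie to the left of the duct-type cells.

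The 98 cells did not share a single secretory profile. They were sorted into 5 transcript patterns by a sequential rule that was set after their values had been seen, so the patterns are a description and no gene difference between them is tested. Cells with at least 10 Bpifb6 UMIs and more Bpifb6 than Bpifb3 were called Bpifb6 cells (10 cells). Of the rest, those with Bpifb3 at 1% or more of their UMIs were called Bpifb3-high (35 cells), and those with Cyp2a5 and Cyp2g1 together at 1% or more formed a separate pattern (8 cells). Cells with less Bpifb3 but at least 3 UMIs of Sox9 and Sox10 together were called Bpifb3-low Sox cells (27 cells). The remaining 18 cells had few gland transcripts. Every pattern had cells from both libraries: 21 and 14 Bpifb3-high, 2 and 8 Bpifb6, 9 and 18 Bpifb3-low Sox, 2 and 6 Cyp2a5/Cyp2g1, and 7 and 11 with few gland transcripts in library 1 and library 2. The boundaries were not empty, since 10 cells had Bpifb3 between 0.5 and 2% of UMIs, 5 had 3 to 30 Bpifb6 UMIs and 35 had 1 to 5 UMIs of Sox9 and Sox10.

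**Figure D2:**
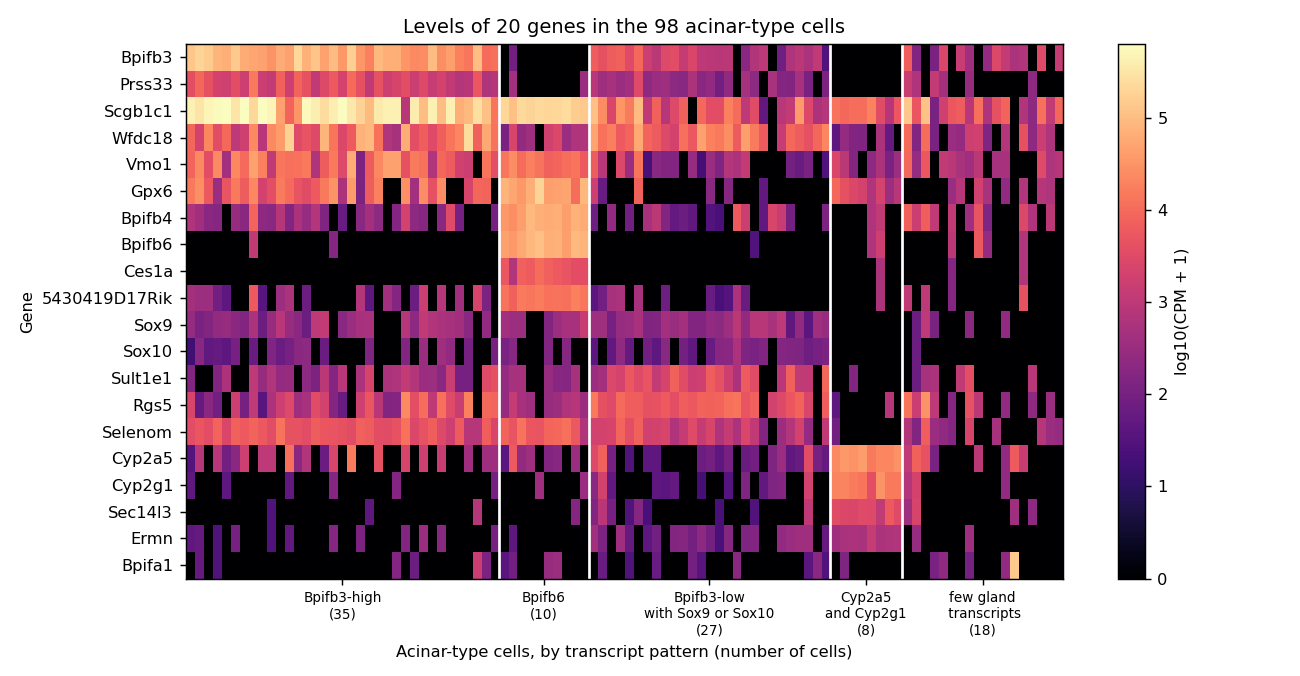
Levels of 20 genes (rows) in each of the 98 acinar-type cells (columns) as log10(CPM + 1), with white lines between the 5 transcript patterns and cells ordered within a pattern by their summed Gpx6, Bpifb3 and Bpifb4 UMIs. Bpifb3 and Prss33 are bright in the 35 Bpifb3-high cells, Bpifb6, Bpifb4, Ces1a and 5430419D17Rik in the 10 Bpifb6 cells, and Cyp2a5 and Cyp2g1 in a group of 8 cells.

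Bpifb3-high cells were dominated by secreted products. Scgb1c1, a secretoglobin of the olfactory mucosa, took 37.5% of all UMIs of these cells, and Gpx6, Bpifb3 and Bpifb4 together took 8.11%. Wfdc18, a whey-acidic-protein domain protein, stood at 30716 CPM, Vmo1, a vitelline membrane outer layer protein homologue, at 12235 CPM, and the serine protease Prss33 at 3310 CPM. All 35 cells had at least 4 Prss33 UMIs. Tac4, a tachykinin precursor, stood at 849 CPM and was present in 31 of the 35 cells. Selenom, a selenoprotein of the endoplasmic reticulum, stood at 5159 CPM and had a UMI in every one of them. Sox9 was present in 29 of the 35 cells. A list of 6 neutrophil markers summed to 532 CPM in the Bpifb3-high cells of library 1 and 11331 CPM in those of library 2. In duct-type cells the same list stood at 1211 and 2489 CPM. Few cells carried most of these transcripts. Over all acinar-type cells of library 2, 3 cells per gene held 98.9% of S100a8, 99.8% of S100a9 and 99.6% of Ngp UMIs. The source of these transcripts was not tested.

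The 10 Bpifb6 cells had a different set. Each had between 236 and 1210 Bpifb6 UMIs, between 177 and 951 Bpifb4 UMIs and between 68 and 1940 Gpx6 UMIs. Bpifb3 was at 0 in 9 of the 10 cells and at 2 UMIs in the other. Ces1a, a carboxylesterase, had 11 to 139 UMIs in every Bpifb6 cell, at 4693 CPM, and 0 UMIs in all 35 Bpifb3-high and all 27 Bpifb3-low Sox cells. Ptgds, a prostaglandin D synthase, stood at 14971 CPM against 288 CPM in Bpifb3-high cells, although 1 cell held 44.4% of all its UMIs in acinar-type cells. Furin, a protease that cleaves secreted precursors, stood at 4231 CPM against 134 CPM, 5430419D17Rik at 12546 CPM against 388 CPM, and the growth factor receptor Fgfr3 at 462 CPM against 54.0 CPM. Prss33 stood at 115 CPM, with 8 of the 10 cells at 0 UMIs. The Bpifb6 cells nevertheless shared gland genes with the Bpifb3-high cells: Scgb1c1 stood at 184754 CPM, Vmo1 at 15244 CPM, Selenom at 7611 CPM and Sox9, present in 8 of 10 cells, at 378 CPM.

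**Figure D3:**
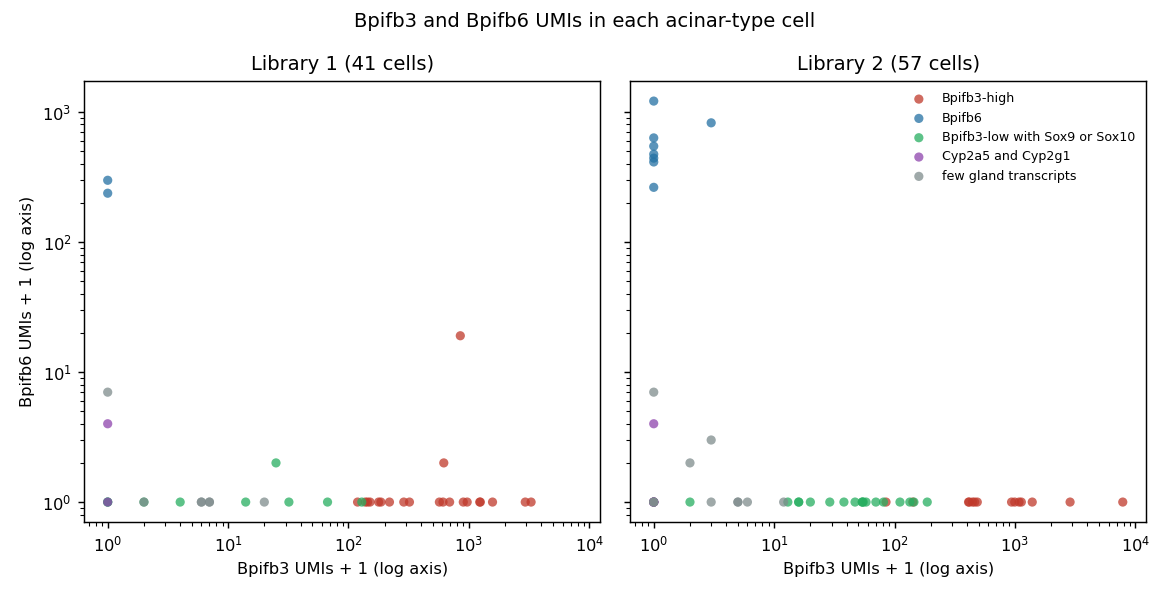
Bpifb6 UMIs + 1 (y, log axis) against Bpifb3 UMIs + 1 (x, log axis) in each acinar-type cell, with 41 cells of library 1 on the left and 57 of library 2 on the right, coloured by transcript pattern. Cells high in Bpifb6 lie along the y axis and cells high in Bpifb3 along the x axis, and 1 cell of 98 has 10 or more UMIs of both.

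Bpifb3 and Bpifb6 were rarely found in the same cell. At 10 or more UMIs, 59 acinar-type cells had Bpifb3 and 11 had Bpifb6, and 1 cell had both. All 11 cells with Bpifb6 also had Bpifb4 and all 11 had Gpx6. A cell without Bpifb3 could enter the group only through Gpx6 or Bpifb4, so the rule partly fixes these counts and they are a description. Of the 39 cells with Prss33 at that level, 37 had Bpifb3 and 2 had Bpifb6. Of 26 cells with Bpifb4, 9 had Bpifb3. Barcodes that had no part in setting the patterns were counted too, but they were picked on the same 3 genes, so the rule partly fixes their counts as well. Among 61 barcodes that met the acinar rule but not the cell filter, 22 had at least 10 Bpifb3 UMIs, 14 had at least 10 Bpifb6 UMIs and 1 had both, and of those 14 with Bpifb6, 13 also had Bpifb4 and 9 had Gpx6. Of 10 of these barcodes with Prss33, 9 had Bpifb3. Among 60 kept cells with at least 5 acinar UMIs that were not acinar-type, 14 had Bpifb3, 3 had Bpifb6 and 0 had both, numbers too small to read anything from. In these 60 cells Prss33 was mostly without Bpifb3, since 10 of 25 cells with Prss33 had it, and 1 of the 3 cells with Bpifb6 had Gpx6. Ces1a at 10 or more UMIs was seen in 10 of the 11 acinar-type cells with Bpifb6 but in 0 of the 14 filtered-out barcodes with Bpifb6.

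Bpifb6, Bpifb3 and Bpifb4 are neighbours in a cluster of BPIF genes on the forward strand of mouse chromosome 2 (GENCODE M21 gene models, mm10). Bpifb6 lies at chr2:153900388-153912795, Bpifb3 at chr2:153918230-153932996 and Bpifb4 at chr2:153938212-153964101, with no other gene of the family between them. Gpx6 lies elsewhere, at chr13:21312125-21319624. The middle gene of the 3 was therefore the one missing from Bpifb6 cells. Of the other 10 genes of the cluster measured here, Bpifb2, next to Bpifb6, stood at 52.5 CPM in Bpifb6 cells, with a UMI in 4 of 10, and at 0 in all other patterns. Bpifa2, Bpifa3, Bpifa5 and Bpifb1 were at 0 in every acinar-type cell, and Bpifa6, Bpifb5, Bpifb9a and Bpifb9b gave no more than 1 UMI in any cell. Bpifa1, an airway surface protein, reached 1544 UMIs in 1 cell with few gland transcripts, which held 97.8% of its UMIs.

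**Figure D4:**
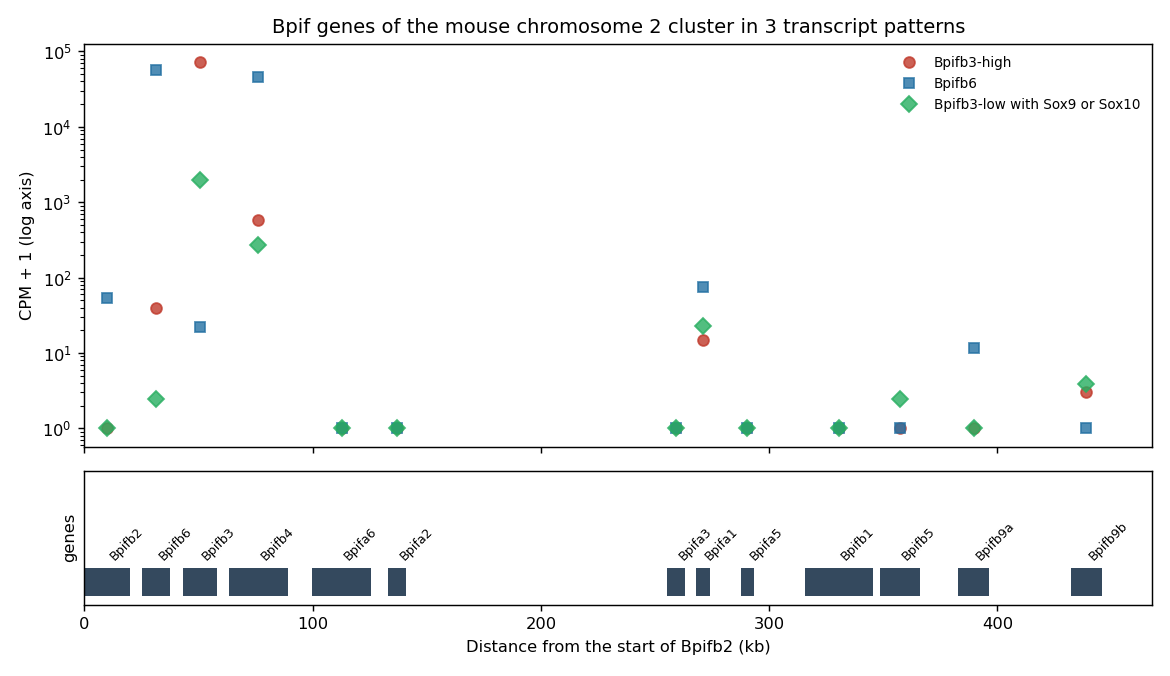
Upper panel, CPM + 1 (log axis) of each gene of the chromosome 2 BPIF cluster at its distance in kb from the start of Bpifb2, for Bpifb3-high (circles), Bpifb6 (squares) and Bpifb3-low Sox cells (diamonds). The lower panel shows the gene bodies to scale: Bpifb6 starts at 25.3 kb, Bpifb3 at 43.2 kb and Bpifb4 at 63.2 kb, and the squares are high on both sides of Bpifb3 but not at it.

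The sequence just upstream of each of these starts is shown because Bpifb3 and Bpifb6 were mostly found in different cells. Bpifb4 and Gpx6, which were found with either of them, are shown for comparison. The RefSeq promoter table (GRCm38.p6, the mm10 assembly) gave 1 window for Bpifb6, Bpifb4 and Gpx6 and 2 for Bpifb3, of which the one nearer to the GENCODE start is shown. Printed are the 250 bases before the RefSeq start, cut off for Gpx6 where the GENCODE gene begins, all 5′ to 3′ on the forward strand. The windows are chr2:153900138-153900387 for Bpifb6, chr2:153917948-153918197 for Bpifb3, chr2:153940612-153940861 for Bpifb4 and chr13:21311953-21312124 for Gpx6. The Bpifb4 window lies inside the longer GENCODE gene model, in an intron.
Bpifb6: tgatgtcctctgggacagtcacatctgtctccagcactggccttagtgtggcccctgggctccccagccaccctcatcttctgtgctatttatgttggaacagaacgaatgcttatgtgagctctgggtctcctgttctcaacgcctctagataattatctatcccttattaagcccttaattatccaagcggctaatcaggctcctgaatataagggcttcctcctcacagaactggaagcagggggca
Bpifb3: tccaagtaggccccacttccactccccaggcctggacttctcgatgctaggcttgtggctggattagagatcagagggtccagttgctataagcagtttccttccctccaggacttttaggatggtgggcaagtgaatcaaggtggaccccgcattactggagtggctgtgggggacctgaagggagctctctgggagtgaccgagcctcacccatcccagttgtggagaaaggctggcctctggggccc
Bpifb4: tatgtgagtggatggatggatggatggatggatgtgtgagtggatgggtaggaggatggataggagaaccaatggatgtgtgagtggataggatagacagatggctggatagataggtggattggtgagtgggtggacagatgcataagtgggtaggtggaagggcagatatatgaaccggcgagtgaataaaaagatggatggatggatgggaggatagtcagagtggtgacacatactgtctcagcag
Gpx6: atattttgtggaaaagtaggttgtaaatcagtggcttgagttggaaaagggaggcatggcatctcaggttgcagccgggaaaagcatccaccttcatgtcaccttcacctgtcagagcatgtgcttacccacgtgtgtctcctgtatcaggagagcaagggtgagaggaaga
The SOX core motif ACAAT, searched on both strands, was found 0 times in each of the 4 windows. It occurs in 27.7% of all RefSeq windows at a length of 250 bases and in 20.8% at 172 bases, and no capitals are printed because no match was found. The Bpifb4 window holds a run of repeats of the short unit ggat.

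Bpifb3-low Sox cells had less of several secreted products and more cell-cycle transcripts than Bpifb3-high cells. Sox9 was present in all 27 cells and Sox10 in 22, which their definition partly fixes, while Scgb1c1 took 1.23% of UMIs and Gpx6 stood at 149 CPM. Wfdc18 was not low: it stood at 16376 CPM against 30716 CPM in Bpifb3-high and 1039 CPM in Bpifb6 cells, with a median of 296, 66 and 3 UMIs per cell. After thinning to 2000 UMIs, 26 of the 27 cells kept a Wfdc18 UMI. Bpifb3 was still present in 25 of the 27 cells, with a median of 37 UMIs. These were the deepest cells, with a median of 25918 UMIs against 10038 in Bpifb3-high cells, and because at least 3 UMIs of Sox9 and Sox10 were required, the definition favours deep cells. Sult1e1, an estrogen sulfotransferase, stood at 3252 CPM against 572 CPM in Bpifb3-high and 325 CPM in Bpifb6 cells. Rgs5, a regulator of G protein signalling, stood at 6438 CPM against 2459 and 609 CPM, and Dbi, an acyl-CoA binding protein, at 2136 CPM against 660 and 157 CPM.

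Transcripts of 23 replication and mitosis genes, none of them used by any rule here, summed to 7227 CPM in the Bpifb3-low Sox cells of library 1 and 3154 CPM in those of library 2. In Bpifb3-high cells the sum was 318 and 803 CPM, in Bpifb6 cells 177 and 67.0 CPM, in duct-type cells 761 and 929 CPM, and in sustentacular-type cells 715 and 682 CPM. The same pattern was highest in both libraries. Without the 3 cells richest in these transcripts, the Bpifb3-low Sox sum was 3884 CPM in library 1 and 1956 CPM in library 2. Each of the 27 cells had between 3 and 417 UMIs of the list. After thinning to 2000 UMIs, 17 of the 27 cells kept 3 or more of them, against 5 of 34 Bpifb3-high and 0 of 10 Bpifb6 cells and against 10.6% of duct-type and 9.39% of sustentacular-type cells. The depth left for other genes still differed. Scgb1c1 took 37.5% of UMIs in Bpifb3-high, 18.5% in Bpifb6 and 1.23% in Bpifb3-low Sox cells.

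The list holds genes of several phases of the cycle. Mki67, a marker of cycling cells, was present in 21 of the 27 Bpifb3-low Sox cells, the mitotic genes Birc5 in 18 and Cdk1 in 17, the topoisomerase Top2a in 14 and the replication clamp Pcna in 23. These counts are not matched for depth. After thinning to 2000 UMIs, Mki67 was detected in 5 of 27 Bpifb3-low Sox and 1 of 34 Bpifb3-high cells, with intervals of 6.30 to 38.1% and 0.0744 to 15.3% that overlap. Top2a was detected in 7 and 2 cells and Pcna in 6 and 2 cells, also with overlapping intervals. Hmgb2 and Tubb5 were detected in more cells at that depth. They were in 21 and 18 of the 27 Bpifb3-low Sox cells and in 8 and 4 of the 34 Bpifb3-high cells. How many of the 27 cells were in cycle was not tested. A list of 6 neuronal precursor markers, which includes Mki67 and Top2a, summed to 362 CPM in the Bpifb3-low Sox cells against 74.0 CPM in Bpifb3-high cells and 61.2 and 89.7 CPM in duct-type cells. Neurog1 and Neurod1 of that list had 0 UMIs. The 6 immature neuron markers summed to 1193 CPM against 194 CPM in Bpifb3-high cells, although Gap43 and Gng8, which the rule limits, had 1 UMI each. Kit, a receptor found in precursors of several kinds, had a UMI in 11 cells, at 21.6 CPM. Stmn1, a microtubule regulator of dividing and young neuronal cells, made up most of that sum, at 1176 CPM. 2 of these cells, both in library 2, carried Scgb2b27 (138 and 390 UMIs) and Scgb1b27 (104 and 279 UMIs), which mark other nasal glands, and had 0 UMIs of Rgs5 and Sult1e1. Their part in the values was not tested.

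**Figure D5:**
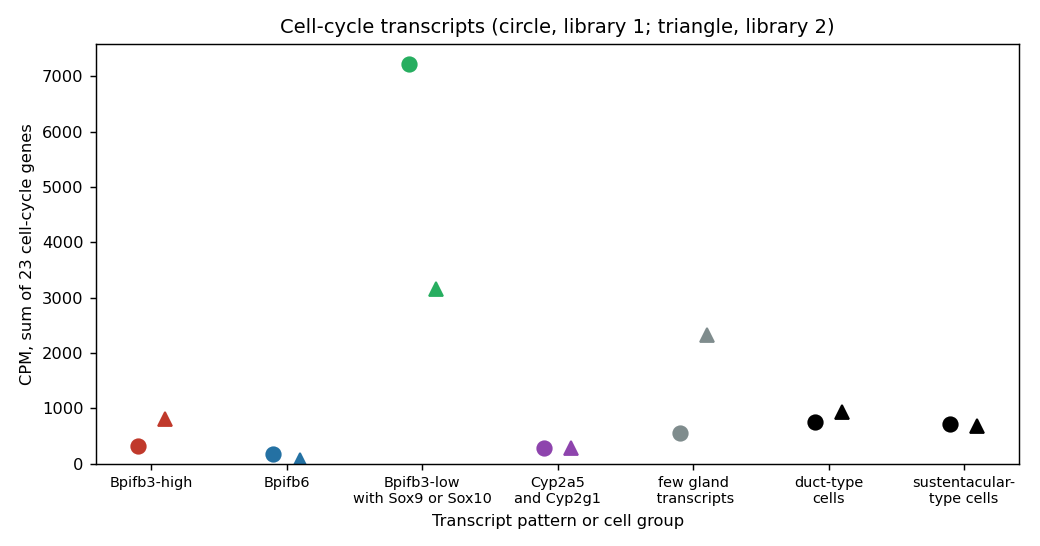
Summed CPM of 23 replication and mitosis genes (y) in the 5 transcript patterns of acinar-type cells and in duct-type and sustentacular-type cells (black), with circles for library 1 and triangles for library 2. The Bpifb3-low Sox cells stand highest in both libraries, at 7227 and 3154 CPM, and 2329 CPM is reached in library 2 cells with few gland transcripts.

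The profile of Sox9 or Sox10 with Sult1e1 was not confined to acinar-type cells. With at least 3 UMIs of Sox9 and Sox10 together and at least 10 of Sult1e1, 30 acinar-type cells and 73 other kept cells were found, and 36 of those 73 had no UMI of Gpx6, Bpifb3 or Bpifb4. 41 of the 73 were duct-type and 3 were sustentacular-type.

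The remaining 26 cells met the rule but did not bear out the acinar label. The 8 cells with Cyp2a5 and Cyp2g1, cytochromes of the olfactory mucosa that sustentacular-type cells carry at 16091 and 7212 CPM in library 1, had 3 to 221 Gpx6 UMIs but 0 UMIs of Bpifb3, Sox9 and Sox10 in every cell. They carried the sustentacular genes Sec14l3 (3717 CPM), Cbr2 (11434 CPM) and Muc2 (2730 CPM), the progenitor and supporting cell factor Sox2 (351 CPM) and the Notch target Hes1 (1297 CPM). They are therefore called Gpx6-bearing cells with Cyp2a5 and Cyp2g1, and whether 2 cells shared a droplet was not tested. Of the 18 cells with few gland transcripts, 13 had a Bpifb3 UMI and 5 a Sox9 UMI, at a median depth of 3874.5 UMIs and a median of 7 UMIs of the acinar genes. Lyz2, a macrophage and neutrophil lysozyme, had a UMI in 10 of these 18 cells, the macrophage complement gene C1qa in 8 and the neutrophil gene S100a8 in 5. The first 3 patterns hold the other 72 cells. For the 27 Bpifb3-low Sox cells among them, Sox9 and Sox10 are part of the definition, 1 cell had the acinar genes at 1% or more of its UMIs, and the Scgb1c1 share of 1.23% was below that of duct-type cells (1.66% and 1.86%).

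Taken as a whole, more genes were lower than higher in acinar-type cells when set against duct-type cells. A gene was counted if its level differed at least 2-fold in the same direction in each library, and the higher group stood at 50 CPM or more, and 1 CPM was added before taking ratios. Of 3056 genes measured against duct-type cells, 91 were higher (2.98%) and 572 lower (18.7%) in acinar-type cells. Of 3064 measured against sustentacular-type cells, 138 were higher (4.5%) and 674 lower (22.0%). These comparisons overlap, since duct-type cells carried the list of 9 sustentacular markers at 29517 and 26185 CPM, near the 32246 and 33337 CPM of sustentacular-type cells. A gene lower than in duct-type cells is therefore not by itself a difference between acinus and duct of the gland. Because Scgb1c1 alone took 20.6% and 11.9% of the UMIs of acinar-type cells, against 1.66% and 1.86% in duct-type cells, the shares left for other genes were smaller. The median log2 ratio over all genes at 10 CPM or more was -0.52 against duct-type and -0.51 against sustentacular-type cells. With Scgb1c1 and the 3 acinar genes left out of the totals, 153 genes were higher and 423 lower than in duct-type cells, and 205 higher and 506 lower than in sustentacular-type cells. Against all other kept cells, 85 of 3163 genes were higher (2.69%) and 569 lower (18.0%).

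Of the genes outside the rule, Bpifb6 stood at 1176 and 4887 CPM against 2.29 and 4.35 CPM in all other kept cells, but in 17.1% and 21.1% of acinar-type cells. Among genes with a UMI in at least 30% of acinar-type cells and at least 100 CPM in each library, those that led were Tac4, at 582 and 310 CPM against 2.86 and 5.75 CPM, and Gkn3, a gastrokine, at 220 and 182 CPM against 4.86 and 3.19 CPM. Prss33 stood at 2233 and 860 CPM against 47.9 and 39.9 CPM. Sult1e1 stood at 2017 and 1703 CPM against 110 and 121 CPM, and Cldn10, a claudin of ion-selective tight junctions, at 881 and 562 CPM against 39.6 and 44.0 CPM. Selenom stood at 3526 and 3004 CPM against 366 and 471 CPM in all other kept cells. Duct-type cells, at 435 and 412 CPM, were near that level, and sustentacular-type cells were at 20.5 and 38.1 CPM. Rgs5 did not set acinar-type apart from duct-type cells, with 3304 and 4464 CPM against 4454 and 3770 CPM. In sustentacular-type cells Rgs5 stood at 20.2 and 62.0 CPM. Several leading genes were also found in duct-type cells: of 94 kept cells with 10 or more Prss33 UMIs, 39 were acinar-type and 50 duct-type.

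Enzymes of odorant metabolism were mostly lower. Of 26 phase I genes measured at 10 CPM or more, 20 were lower and 1 higher than in duct-type cells, with a median log2 ratio of -2.65, where 14.4% of all genes at that level were lower and 3.27% higher. The exception was Ces1a. Cyp2a5 stood at 952 and 2879 CPM against 15192 and 12975 CPM in duct-type cells, so that duct-type cells carried it at about the sustentacular-type level of 16091 and 16934 CPM. Of 17 phase II conjugating genes, 12 were lower and 0 higher, with a median of -2.11. Gstm1, a glutathione transferase, stood at 762 and 1020 CPM against 6250 and 5833 CPM. Against sustentacular-type cells, where 17.0% of all genes were lower and 4.88% higher, 20 of 26 phase I genes and 12 of 17 phase II genes were lower, with medians of -2.74 and -2.28. Among antioxidant genes, Gpx6 and Prdx4 were higher and 7 of 23 were lower than in duct-type cells. The direction of Gpx6 was set by the rule, which uses it to pick both groups. The lower ones included Prdx6 at 785 and 1045 CPM against 5127 and 5585 CPM and Gpx4 at 552 and 924 CPM against 2113 and 2201 CPM.

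Mucins were likewise lower. Of 13 mucin and mucus genes measured against duct-type cells, 11 were lower and Scgb1c1 was higher, with a median of -3.08. Of all genes at 10 CPM or more, 14.4% were lower and 3.27% higher. Muc5b, a gel-forming mucin, stood at 83.7 and 69.2 CPM against 629 and 265 CPM, and 3 cells held over 90% of its acinar-type UMIs, at 92.5% and 95.6%. Genes of the secretory machinery stood close to the other cells. Of 25 measured, 1 (Creb3l1) was higher (4.0%, near the 3.27% of all genes) and 0 lower than in duct-type cells, with a median of 0.10. Creb3l1, a transcription factor of secretory cells, stood at 69.1 and 54.9 CPM against 27.9 and 21.8 CPM. Of 19 chaperone and unfolded protein response genes, Sdf2l1 was higher (5.26%, also near that share) and 0 were lower, with a median of -0.05. Both medians lie above the -0.52 of all genes. Bhlha15, a factor of serous acinar cells in other glands, was scarce at 14.6 and 8.14 CPM.

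Slc12a2, the chloride importer of secreting epithelia, stood at 437 and 421 CPM against 145 and 215 CPM in duct-type cells and 109 and 165 CPM in sustentacular-type cells. Slc4a4, a bicarbonate cotransporter, stood at 163 and 128 CPM against 44.6 and 37.2 CPM in duct-type cells, and the anion channel Slc26a9 at 18.8 and 17.3 CPM against 2.01 and 2.38 CPM. Of 21 fluid and ion transport genes measured against duct-type cells, Slc4a4 and Slc26a9 were higher and 4 were lower, among them the water channels Aqp3 and Aqp4, where 3.27% of all genes were higher and 14.4% lower. Of 9 receptors of secretory signals, 4 were higher and 3 lower than in duct-type cells. Fgfr2 stood at 96.3 and 108 CPM against 33.3 and 30.9 CPM, Fgfr3 at 50.2 and 55.9 CPM against 6.32 and 7.92 CPM, and the muscarinic receptor Chrm3, which carries the parasympathetic signal in other glands, at 20.9 and 25.4 CPM against 9.20 and 8.12 CPM. The beta-adrenergic receptor Adrb1 was the other higher one, at 12.6 and 17.3 CPM against 2.30 and 5.15 CPM.

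Among 29 transcription factors listed for glands and olfactory epithelium, Sox9 and Id2 were higher and 5 lower than in duct-type cells, where 3.27% of all genes were higher and 14.4% lower. Sox2 stood at 31.4 and 33.6 CPM against 338 and 359 CPM, and Hes1 at 220 and 231 CPM against 1032 and 1037 CPM. Foxc1, a forkhead factor, stood at 123 and 88.5 CPM against 62.1 and 45.3 CPM in duct-type cells and 2.22 and 2.01 CPM in sustentacular-type cells. Of 7 Notch pathway genes measured against duct-type cells, Notch3, Jag1, Hes1 and Nrarp were lower and 0 were higher, with a median of -2.06. Of 17 cell-cycle genes, 12 were higher and 0 lower than in duct-type cells, with a median of 1.76, and of 18 measured against sustentacular-type cells 15 were higher, with a median of 2.26. Against all other kept cells, 0 of 20 were higher and 0 lower, with a median of 0.49, where 2.01% of all genes were higher and 19.8% lower. These cell-cycle medians turned to -1.03 and -0.60 when only the 47 cells with the acinar genes at 1% or more of UMIs were taken, a choice that keeps 1 of the 27 Bpifb3-low Sox cells. Of 16 interferon and antigen-presentation genes, 8 were lower and 0 higher than in duct-type cells, with a median of -1.61.

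Between the libraries, no gene difference can be separated from the difference between 2 single captures. Of 2457 genes that reached 50 CPM in either library and 20 UMIs over both, 165 were 2-fold or more higher in library 2 (6.72%) and 45 were 2-fold or more lower (1.83%). With Scgb1c1 and the 3 acinar genes left out of the totals, the split was 153 higher and 109 lower, and with the mean over cells in place of summed UMIs it was 262 and 123. Few cells set many of these differences: in 44.8% of the genes higher in library 2 and 77.8% of those lower, 3 cells of the library held over 50% of the UMIs.

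The secreted products moved in different directions between the libraries. Bpifb3 and Prss33 were lower in library 2, with log2 ratios of -0.86 and -1.38, while Bpifb4 and Bpifb6 were higher, with 1.53 and 2.05. Bpifb6 stood at 1176 CPM (1081 to 1277) in library 1, with 98.0% of its UMIs in 3 cells, and at 4887 CPM (4750 to 5027) in library 2, with 55.4%. The direction for each of these 4 genes was the same in all 19 settings tried, but some settings could not change it. Limits on level do not enter the ratio, and adding 10 CPM cannot turn its sign. Removing shared barcodes took out 0 acinar-type cells. Gpx6 had a log2 ratio of 0.09, within a range of -0.41 to 0.71 over the settings. Scgb1c1 stood at 206260 CPM in library 1 and 118735 CPM in library 2, and Sox9 had a log2 ratio of -0.54. The 2 libraries hold different numbers of cells of each pattern, and the part of those numbers in the ratios was not tested.

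Immediate early genes, which respond to stimulation and to tissue dissociation, were lower in library 2. Of 18 measured, 5 were 2-fold or more lower and 0 higher, with a median log2 ratio of -0.65, where 3.81% of all genes at that level were lower, 13.3% were higher and the median was 0.22. Btg2, an antiproliferative early gene, stood at 812 CPM in library 1 and 400 CPM in library 2, and it was also the higher in library 1 among duct-type cells, at 826 and 683 CPM, and sustentacular-type cells, at 996 and 780 CPM. Nr4a2, an orphan nuclear receptor, stood at 64.9 and 24.4 CPM. The Btg2 difference thus had the same direction in all 3 groups. Phase I genes leaned the other way, with 12 of 22 higher in library 2 and a median of 1.17. The sustentacular marker list stood at 3748 CPM in library 1 and 7440 CPM in library 2, but it holds the phase I gene Cyp2a5 itself, so the lists are not independent. The phase I median was -0.12 once cells with 3 or more UMIs of immune, stromal or sustentacular markers were removed. What set the phase I difference was not tested. Anxa1, an actin and lipid-binding annexin, was among the genes higher in library 2, at 186 and 626 CPM.

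Ranked over 333 genes in cells thinned to 2000 UMIs (40 cells in library 1 and 53 in library 2), the genes most like Gpx6 in both libraries were Vmo1, with Spearman correlations of 0.65 and 0.62, Gas6, a ligand of TAM receptors, with 0.64 and 0.51, and Scgb1c1, with 0.52 and 0.55. Ces1d followed with 0.43 and 0.62 and Selenom with 0.55 and 0.41. The other 3 of the 8 most correlated genes code for membrane proteins: Tspan8 (0.39 and 0.51), Cldn10 (0.49 and 0.39) and Tmbim6 (0.31 and 0.45). The cells share their libraries and were chosen by Gpx6 among other genes, so these values only describe them. Vmo1 belongs to the duct genes of the rule, and 52 acinar-type cells had 10 or more of its UMIs, as did 337 duct-type cells.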

How the data were processed

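The deposited table is 1 aggregated matrix of UMI counts (31053 genes by 12491 barcodes, 4501 in library 1 and 7990 in library 2), which the authors made from droplet libraries with Cell Ranger 3.0.2 and the mm10 genome, per the submitters' processing notes. The sources used here do not give whether aggregation equalised depth. The barcode suffix gives the library, and no label ties a suffix to a side. The kept cells held 21444390 UMIs in library 1 and 37996298 in library 2.

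Counts were summed per library and cell group with pandas 2.3.3, numpy 2.4.6 and scipy 1.17.1 in Python 3.11.15 (figures with matplotlib 3.10.9) and scaled to CPM, with exact Poisson intervals for levels and exact binomial (Clopper-Pearson) intervals for shares. Cells of 1 library are not replicates and each side has 1 library, so no test, p-value or standard error was computed. Log2 ratios had 1 CPM added. Genes were called at a 2-fold difference with at least 50 CPM in the higher group, and gene lists counted members at 10 CPM or more. Detection was compared after thinning each cell to 2000 UMIs with a fixed seed, leaving out shallower cells. The calculations were tested on simulated counts.

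Genes named are those of the rule, the 25 leading genes over other kept cells, the 12 most different each way from duct-type and from sustentacular-type cells, the 10 highest, the 10 most different each way between libraries (those with no more than 50% of UMIs in 3 cells), the 8 most correlated with Gpx6, and members of the gene lists. Where many qualified, only some are printed. The pattern rule, and which named genes were given by pattern, were chosen after values had been seen. The cells and all lists were chosen with earlier results of these data known. Doublets were scored with scrublet in scanpy 1.11.5, which called 3 and 4 cells (0.0989% and 0.0760% of kept cells), 0 of them acinar-type. A share that low means the caller did not work here, so the highest scores were removed as an alternative only. The median score of acinar-type cells was above that of all kept cells. It was 0.0446 against 0.0256 in library 1 and 0.0656 against 0.0179 in library 2. The removed cells included 0 and 5 acinar-type cells, and what set the scores was not tested. Gene positions are GENCODE M21.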

Additional observations from a re-analysis of the deposited data

Results flagged for a closer look

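The cell filter removed 26 barcodes in library 1 and 35 in library 2 that otherwise met the acinar rule, a signal outside the cells used above. They were 1.77% and 1.28% of the 1469 and 2724 removed barcodes, with a median of 20.5% and 15.3% mitochondrial UMIs and a median depth of 1523 and 5392 UMIs. 22 of the 26 and 30 of the 35 exceeded the mitochondrial limit.

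For 4 genes of neutrophil granules and mucosal defence, acinar-type cells stood below duct-type cells in library 1 and above them in library 2. The log2 ratio of acinar-type to duct-type cells was higher in library 2 by 2.93 for S100a8 and 2.93 for S100a9, by 6.92 for Ngp and by 3.38 for Ltf. The difference was not tested, with 1 library each. S100a8 stood at 113 and 2915 CPM in acinar-type cells against 242 and 812 CPM in duct-type cells, and Ltf, which gland cells also make, at 213 and 2712 CPM against 598 and 726 CPM. Over 90% of the UMIs of each of the 4 genes in acinar-type cells of library 2 lay in 3 cells, counted for each gene separately. For Ltf the highest cells, with 1392 and 836 UMIs, were the Bpifb3-low Sox cells that carried Scgb2b27 and Scgb1b27.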

How the results depend on the processing

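Over 19 settings, 8 results (the 2 shares and the counts of genes higher and lower between libraries, against duct-type and against sustentacular-type cells) gave 100 values within 1.5 times the count, or within the interval of the share, and 30 outside. Removing shared barcodes took out 0 acinar-type cells, so its values repeat the main ones and count among the 100. Filters: at most 5% mitochondrial UMIs gave 164 genes lower in library 2, 46 higher than in duct-type cells, and 89 higher and 1166 lower than in sustentacular-type cells. At least 20 acinar UMIs gave a library 2 share of 0.741% and 29 genes lower. No neuronal UMI gave 101 higher and 77 lower in library 2. Removing cells with other cell types' markers gave shares of 0.726% and 0.380%, 87 genes lower in library 2 and 890 lower than in duct-type cells. Scales: adding 10 CPM gave 108 higher, and the mean over cells 262 higher and 123 lower, in library 2. A limit of 10 CPM gave 684 and 104 between libraries, 282 and 1241 against duct-type and 429 and 1497 against sustentacular-type cells, and no limit gave 3520 and 1112. Chosen after seeing the data: leaving Scgb1c1 and the acinar genes out of the totals gave 109 lower in library 2 and 153 higher than in duct-type cells. Acinar genes at 1% or more of UMIs gave shares of 0.792% and 0.437%, 89 lower in library 2, and 1266 and 1312 lower than in duct-type and sustentacular-type cells. Limits on level do not enter the gene ratios, so those settings repeat the main ratios. Of the gene ratios between libraries, 723 values were unmoved, 167 moved, and 3 changed sign in a gene that was 2-fold apart in the main setting. These 3 were Prss8 to -0.65 (at most 5% mitochondrial UMIs) and -0.53 (other cell types' markers removed), and Hexa to 0.0056 (mean over cells). Sign changes of genes less than 2-fold apart are counted among the unmoved or moved values. Gpx6, for example, kept its sign in 13 of 19 settings and Vmo1 in 12. The cause was not tested. No paired analysis was possible because each side has 1 library. With 41 and 57 cells, genes at few UMIs have wide counting intervals, and the values cover 1 library each.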
